A study of Mus musculus with 16 samples.

Results

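The genes described here make sterols, make fatty acids, or regulate both routes. They were chosen by symbol, 15 for sterol synthesis, 15 for fatty acid synthesis and the 3 regulators Insig1, Srebf1 and Srebf2, which makes 33 genes. Of these, 15 were found among the 5205 genes of the 2 deposited tables: 6 sterol genes, 8 fatty acid genes and Insig1. The TSP1F/F table held 10 of them, the TSP1ΔPf4 table held 11, and 6 were in both (Idi1, Cyp51, Msmo1, Insig1, Scd1 and Scd2). Each table lists only genes with an unadjusted p-value below 0.05 for the diet comparison of its genotype. A listed gene had therefore already passed a test of diet on the same mice, so its diet test here is no independent evidence, and a gene listed for a single genotype is not thereby shown to differ between genotypes. The 18 other members are not analysed here: Hmgcs1, Mvk, Pmvk, Mvd, Fdps, Fdft1, Lss, Nsdhl and Dhcr7 for sterols, Acly, Acss2, Me1, Thrsp, Elovl5, Fads1 and Pnpla3 for fatty acids, and Srebf1 and Srebf2.

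Liver RNA came from 16 male C57BL6 mice, 4 in each of 4 groups, fed a low-fat (LF) diet or the AMLN diet, which is rich in fat, fructose and cholesterol, for 32 weeks. Every mouse carried floxed Thbs1, the gene of thrombospondin 1. TSP1F/F mice, labelled WT, had no Cre, and TSP1ΔPf4 mice, labelled KO, also had Pf4-Cre, whose promoter is active in megakaryocytes and platelets, so the liver's own cells were not the target of the deletion. Age is not in the labels. Thbs1 was listed for TSP1F/F livers only and so does not check the genotype labels.

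Cholesterol is built from acetyl-CoA through mevalonate, squalene and lanosterol, and the enzymes of this route are switched on together by the transcription factor encoded by Srebf2. When sterols in the endoplasmic reticulum are plentiful, Insig proteins hold the precursor of that factor there, and the genes of the route are expressed less. Fatty acids are also built from acetyl-CoA, by acetyl-CoA carboxylase and fatty acid synthase, and are then lengthened and desaturated; in the liver these genes answer to the factor encoded by Srebf1, to insulin, to dietary sugar and to oxysterol receptors. The routes share a precursor and can be regulated separately.

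Promoter sequences are shown for genes that stood lower or higher together on the AMLN diet, to let the letters be compared with the expression below. RefSeq start sites on GRCm38.p6 were matched for 26 of the 33 members and 11 of the 15 listed. Scd1, Scd2, Elovl3, Sqle, Fads1, Fdft1 and Fdps had no entry. Each line gives the 250 bases before the start site, 5′ to 3′ on the gene's strand, with the CCAAT box in capitals, read as CCAAT or, on the other strand, ATTGG. This box is bound by the factor NF-Y, a known partner of sterol-responsive promoters. The first 4 genes are Idi1 (chr13:8885356-8885605, forward strand), Cyp51 (chr5:4104698-4104947, reverse strand), Msmo1 (chr8:64733579-64733828, reverse strand) and Insig1 (chr5:28071162-28071411, forward strand), the sterol genes and the regulator listed in both genotypes. Fasn (chr11:120824548-120824797, reverse strand) and Fads2 (chr19:10101504-10101753, reverse strand) stand for the fatty acid genes.
Idi1: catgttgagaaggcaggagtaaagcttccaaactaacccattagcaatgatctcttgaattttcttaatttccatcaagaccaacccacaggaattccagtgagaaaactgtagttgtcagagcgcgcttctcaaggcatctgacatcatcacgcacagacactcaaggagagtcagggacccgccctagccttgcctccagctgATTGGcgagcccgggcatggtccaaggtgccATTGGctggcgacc
Cyp51: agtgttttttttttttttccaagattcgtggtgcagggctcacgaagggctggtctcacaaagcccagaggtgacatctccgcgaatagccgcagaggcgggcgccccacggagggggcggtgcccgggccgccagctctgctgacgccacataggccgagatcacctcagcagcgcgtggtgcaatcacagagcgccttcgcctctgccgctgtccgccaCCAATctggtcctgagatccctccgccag
Msmo1: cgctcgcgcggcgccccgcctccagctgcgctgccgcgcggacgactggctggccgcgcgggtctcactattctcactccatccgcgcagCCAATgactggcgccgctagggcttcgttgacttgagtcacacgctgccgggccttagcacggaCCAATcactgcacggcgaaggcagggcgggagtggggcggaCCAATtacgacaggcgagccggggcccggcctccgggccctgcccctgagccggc
Insig1: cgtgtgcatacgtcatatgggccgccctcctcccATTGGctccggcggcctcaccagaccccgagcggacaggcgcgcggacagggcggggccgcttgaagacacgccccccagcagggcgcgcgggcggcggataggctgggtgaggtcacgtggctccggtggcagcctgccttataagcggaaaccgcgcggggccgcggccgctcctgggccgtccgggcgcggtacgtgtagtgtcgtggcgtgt
Fasn: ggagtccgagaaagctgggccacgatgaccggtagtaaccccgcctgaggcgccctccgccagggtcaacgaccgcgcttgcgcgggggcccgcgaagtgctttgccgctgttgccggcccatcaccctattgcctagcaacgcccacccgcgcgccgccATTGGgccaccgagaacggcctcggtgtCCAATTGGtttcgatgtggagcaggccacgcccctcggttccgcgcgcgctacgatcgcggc
Fads2: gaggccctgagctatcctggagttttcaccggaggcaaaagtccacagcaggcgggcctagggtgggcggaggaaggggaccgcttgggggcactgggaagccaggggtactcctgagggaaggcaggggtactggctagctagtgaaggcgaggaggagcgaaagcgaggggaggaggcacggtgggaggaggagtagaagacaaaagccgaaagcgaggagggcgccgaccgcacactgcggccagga

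The CCAAT letters began 45 and 14 bases before the start site of Idi1, 29 bases before that of Cyp51, 160, 96 and 55 bases before that of Msmo1, and 216 bases before that of Insig1. Fasn held 3 matches, at 90, 62 and 59 bases before the start, of which the last pair overlap on opposite strands. Fads2 held none. Over windows of 300 bases, reaching 50 bases past the start, CCAAT was in 12289 of all 32851 promoters (37.4%). It was in at least 1 window of all 12 sterol genes with an entry (12 of their 15 windows), and of 8 of the 11 fatty acid genes with one (8 of 12 windows). Among listed genes it was also in Hsd17b7, Sc5d and Acacb, and not in Acaca, Elovl6 or Fads2. The windows of Acaca and Acacb lay 65766 and 18983 bases inside the deposited gene, so they belong to internal starts. The sterol element TCACNCCAC, read on both strands, was in 408 promoters (1.24%) and in Hmgcs1 alone of the members. The E box CACGTG was in 7.15% of all promoters and, of the listed genes, in Hsd17b7, Sc5d and Insig1. These matches describe letters only.

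Library totals ran from 17127965 to 39753019, and levels are given as counts scaled to that total (CPM). The medians of the totals were 18908942 and 27661650 for LF- and AMLN-fed TSP1F/F mice and 18838184 and 27148200 for the TSP1ΔPf4 mice, so the AMLN libraries were deeper. Calls needed both a log2 fold change beyond 0.25 and an adjusted p under 0.05, from the quasi-likelihood test of edgeR adjusted by the Benjamini-Hochberg method. Over all genes tested, diet comparisons called 2.39% of 2096 genes higher and 0.0954% lower on AMLN in TSP1F/F mice, and 1.46% of 3089 higher and 1.52% lower in TSP1ΔPf4 mice. No member was called in any of the 5 comparisons, so the member values below are given as levels and differences. DESeq2, which called 741 genes (285 higher and 456 lower, or 448 and 115 with the authors' size factors) against 52 (50 higher and 2 lower) in TSP1F/F mice, and 1376 (1010 higher and 366 lower, or 399 and 674 with the authors' size factors) against 92 (45 higher and 47 lower) in TSP1ΔPf4 mice, called 8 of the 10 and 4 of the 11 listed members. With TMM scaling the split in TSP1ΔPf4 mice was 160 higher and 38 lower.

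Levels of cell type markers in these bulk livers are given by diet for listed markers only. Each had already passed the diet test on the same mice, so a diet difference of these sums follows from the listing. Markers that were not listed have no values here. All 6 macrophage markers were listed for TSP1F/F mice, with a summed level of 72.2 to 515 CPM on LF and 433 to 1873 CPM on AMLN, and 5 were listed for TSP1ΔPf4 mice, at 52.3 to 116 and 151 to 226 CPM. The listed hepatocyte markers (Ttr, Serpina1a, Pck1 and G6pc, 4 of 8) summed to 7832 to 11065 CPM on LF and 3508 to 6606 CPM on AMLN in TSP1F/F mice. In TSP1ΔPf4 mice 5 of 8 (Apoa1, Ttr, Fga, Serpina1a and G6pc) summed to 23395 to 32777 and 12577 to 18748 CPM. Of the adipocyte markers, Fabp4 and Cidea (2 of 7) summed to 3.34 to 12.9 and 23.1 to 70.4 CPM in TSP1F/F mice. In TSP1ΔPf4 mice they summed to 3.24 to 11.3 and 11.5 to 61.1 CPM. Cidea had 0 reads in 1 LF-fed TSP1F/F liver. Adipoq, Plin1, Lep, Cfd and Retn were not listed for either genotype, so these sums do not measure adipocyte content. The stellate cell markers Col1a1, Col3a1 and Acta2 (3 of 5) summed to 7.92 to 21.3 and 74.1 to 154 CPM in TSP1F/F mice, and Col1a1 and Col3a1 (2 of 5) to 10.7 to 20.8 and 16.2 to 70.7 CPM in TSP1ΔPf4 mice, with overlap. The hepatocyte sums hold only markers listed for a diet difference and do not measure hepatocyte number. Fewer hepatocytes, less RNA per hepatocyte and a change of these marker genes alone cannot be told apart here. The part of cell mixture in the member values was not tested.

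The listed sterol synthesis genes had lower mean levels on the AMLN diet in both genotypes, and none was called. In TSP1F/F mice all 5 that were listed stood below LF, with log2 fold changes from -2.87 to -1.17 and a median of -1.54, while the median of all 2096 genes tested was 1.15. In TSP1ΔPf4 mice all 4 listed stood below LF, from -1.16 to -0.42 with a median of -1.11, and the median of all 3089 genes was -0.54. Groups did not overlap for 3 of the 5 and 3 of the 4, against 15.6% and 29.1% of all genes tested that were lower without overlap. The listing of these genes already used this contrast, and nothing further is read from these shares.

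Idi1, which interconverts the isoprene building blocks of the mevalonate route, showed the largest difference of the listed sterol genes in TSP1F/F mice. In TSP1F/F mice it had 21.5, 11.9, 22.3 and 3.45 CPM on LF and 1.57, 0.225, 3.19 and 3.05 CPM on AMLN (means 14.8 ± 8.91 and 2.01 ± 1.40 CPM, SD, n = 4 mice each). The groups did not overlap, though the lowest LF mouse came close to the highest AMLN mouse. The log2 fold change was -2.87 (SE 0.75), 7.32-fold lower, with an adjusted p = 0.166 by edgeR and p = 0.0286 by a two-sided exact permutation test, the smallest that 4 mice against 4 allow. In TSP1ΔPf4 mice Idi1 had 5.26, 5.07, 2.34 and 4.14 CPM on LF and 1.03, 2.06, 2.71 and 1.85 CPM on AMLN. Here 1 LF mouse lay inside the AMLN range, and the log2 fold change was -1.13 (SE 0.38, edgeR adjusted p = 0.143). Idi1 counts in single AMLN livers went as low as 5 reads, and its exons overlap the antisense gene Gm48574, from which it cannot be separated without stranded counting.

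Sqle encodes squalene epoxidase, which makes the first oxygenated sterol precursor, and it was listed for TSP1F/F mice only. It had 12.8, 2.89, 2.48 and 2.89 CPM on LF and 1.18, 1.26, 1.74 and 3.10 CPM on AMLN. A single LF mouse carried most of the difference, and the other LF mice overlapped the AMLN range. The log2 fold change of -1.54 (SE 0.64, edgeR adjusted p = 0.445) became -0.60 when that mouse was left out.

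Cyp51 and Msmo1 remove methyl groups from lanosterol and its products. Cyp51 had 44.3, 22.1, 50.3 and 14.3 CPM on LF and 8.53, 7.90, 12.5 and 11.8 CPM on AMLN in TSP1F/F mice. In TSP1ΔPf4 mice it had 19.5, 22.4, 31.4 and 19.3 CPM on LF and 9.91, 7.57, 12.3 and 11.5 CPM on AMLN. The groups were separate in both genotypes (exact permutation p = 0.0286 each), and the AMLN levels of the genotypes lay in nearly the same range. The log2 fold changes were -1.68 (SE 0.40, edgeR adjusted p = 0.1253) and -1.16 (SE 0.24, edgeR adjusted p = 0.0567). Exons of Cyp51 overlap the antisense gene Akap9.

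Msmo1 had 72.8, 34.8, 44.1 and 16.8 CPM on LF and 15.9, 25.0, 11.1 and 23.2 CPM on AMLN in TSP1F/F mice. One LF mouse, the same that was lowest for Idi1, Cyp51 and Insig1, lay within the AMLN range. In TSP1ΔPf4 mice it had 38.7, 36.6, 18.4 and 27.4 CPM on LF and 14.1, 12.7, 14.9 and 15.2 CPM on AMLN, with no overlap. The log2 fold changes were -1.17 (SE 0.43, edgeR adjusted p = 0.356) and -1.09 (SE 0.25, edgeR adjusted p = 0.0626). Without LF replicate 3 the latter was -1.26 with an edgeR adjusted p = 0.0231, the lowest of the 8 fits that left out a mouse, which went up to 0.215.

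Hsd17b7 and Sc5d act later in the route, and each was listed in a single genotype. Hsd17b7, the ketoreductase of the methyl-removing steps, had 55.4, 21.9, 43.6 and 32.6 CPM on LF and 13.5, 16.4, 13.4 and 17.8 CPM on AMLN in TSP1F/F mice, a log2 fold change of -1.33 (SE 0.31, edgeR adjusted p = 0.114) without overlap. Sc5d, which sets a ring double bond near the end of the route, had 211, 203, 212 and 202 CPM on LF and 141, 156, 161 and 161 CPM on AMLN in TSP1ΔPf4 mice. Its mice differed little within a diet, and the groups were separate at a log2 fold change of -0.42 (SE 0.18, edgeR adjusted p = 0.228). Per length, Sc5d was far above the other listed sterol genes, with 42.5 ± 1.12 FPKM on LF, while Cyp51 and Msmo1 had 5.24 ± 1.28 and 4.93 ± 1.51 FPKM and Idi1 had 1.199 ± 0.381 FPKM in the same mice (SD, n = 4). Cyp51 and Msmo1 did not differ beyond their spread.

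Insig1, the sterol sensor's retention protein and itself a target of the route's factor, stood lower on AMLN as well. It had 76.3, 101, 121 and 40.6 CPM on LF and 25.3, 30.3, 34.3 and 61.5 CPM on AMLN in TSP1F/F mice, where 1 LF mouse and 1 AMLN mouse crossed. In TSP1ΔPf4 mice it had 84.4, 92.1, 56.8 and 54.9 CPM on LF and 36.5, 57.3, 38.4 and 52.1 CPM on AMLN, again with overlap. The log2 fold changes were -1.17 (SE 0.38, edgeR adjusted p = 0.278) and -0.64 (SE 0.24, edgeR adjusted p = 0.183).

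**Figure D1:**
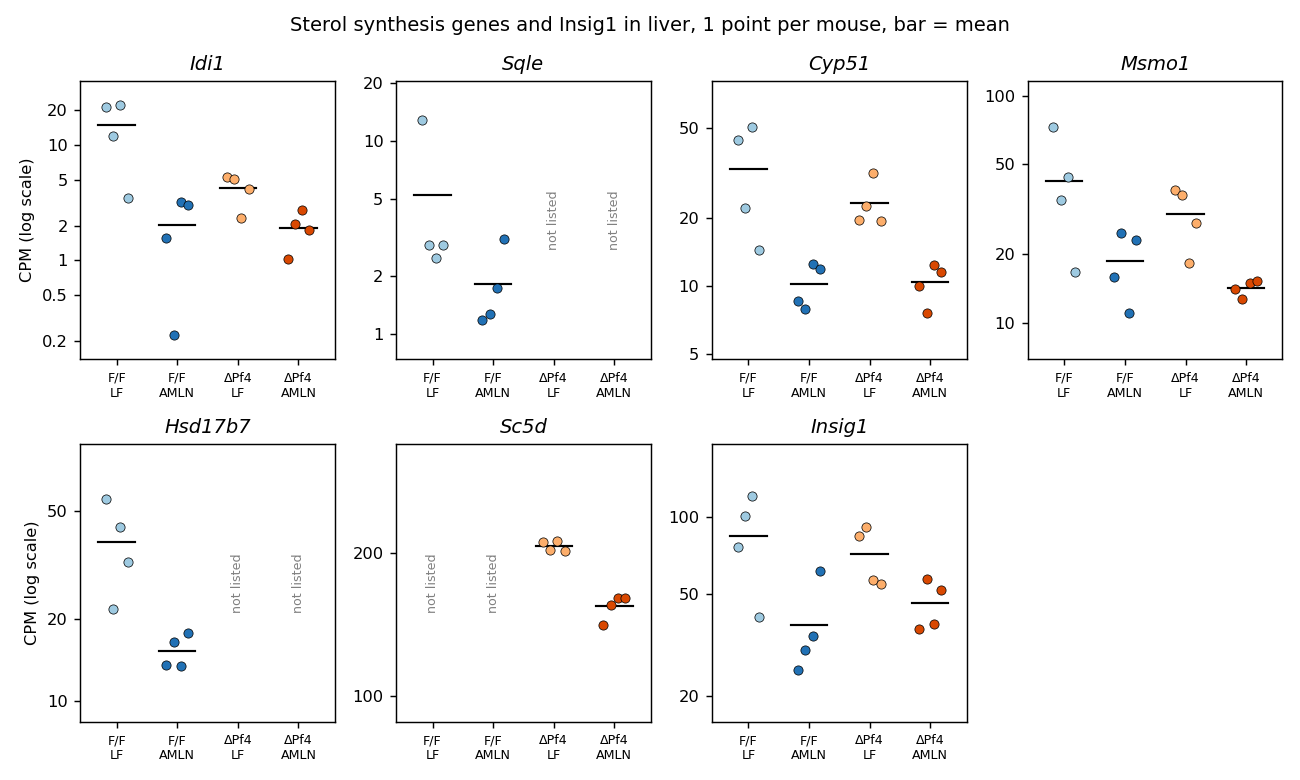
Levels in CPM on a log axis of the 6 listed sterol synthesis genes and Insig1, with 1 point per mouse, 4 mice per group and a bar at the group mean. F/F stands for TSP1F/F and ΔPf4 for TSP1ΔPf4, and panels without points are genes not listed for that genotype. AMLN means lie below LF means in every panel, and only Cyp51, Hsd17b7 and Sc5d have separate diet groups in each genotype that shows them.

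Of the listed fatty acid synthesis genes, all but Elovl3 had higher mean levels on the AMLN diet, with the largest fold for the desaturase Scd1, and none was called. In TSP1F/F mice 3 of 4 listed genes stood above LF and Elovl3 stood below, with a median log2 fold change of 1.41 beside 1.15 for all genes tested. In TSP1ΔPf4 mice all 6 listed genes stood above LF, from 0.67 to 2.06 with a median of 1.00, beside -0.54 for all genes tested. Only 1 of those 6 was free of overlap between diets, against 20.4% of all genes tested that were higher without overlap, and in TSP1F/F mice 2 of 4 were, against 36.6%.

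Scd1, the main hepatic stearoyl-CoA desaturase, had 3663, 4006, 1345 and 1105 CPM on LF and 20069, 20307, 13570 and 7352 CPM on AMLN in TSP1F/F mice. Every AMLN mouse was above every LF mouse, and the log2 fold change was 2.60 (SE 0.53), 6.06-fold, with an edgeR adjusted p = 0.0746. In TSP1ΔPf4 mice it had 6966, 4052, 3430 and 2483 CPM on LF and 16773, 28522, 20508 and 4806 CPM on AMLN, a log2 fold change of 2.06 (SE 0.46, edgeR adjusted p = 0.0621). The groups overlapped through AMLN replicate 4 alone. Leaving it out gave a log2 fold change of 2.37 with an edgeR adjusted p = 0.0235, the lowest of the 8 fits that left out a mouse. Over these fits the edgeR adjusted p went up to 0.213. Without replicate 4 the number of all genes called also rose, from 92 to 182. Scd1 alone took 0.735% to 2.03% of the library total in the AMLN livers of TSP1F/F mice and 0.481% to 2.85% in those of TSP1ΔPf4 mice.

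Scd2, a related desaturase better known from brain and fat, stood higher on AMLN too, at far lower levels. It had 3.71, 0.911, 1.38 and 0.788 CPM on LF and 6.17, 4.85, 15.0 and 6.15 CPM on AMLN in TSP1F/F mice, and 3.51, 3.38, 1.75 and 1.11 against 5.87, 6.21, 10.1 and 4.56 CPM in TSP1ΔPf4 mice. Both pairs of groups were separate, with log2 fold changes of 2.25 (SE 0.60, edgeR adjusted p = 0.177) and 1.45 (SE 0.41, edgeR adjusted p = 0.0959). The FPKM of Scd1 was 1017 to 5180 times that of Scd2 over the AMLN livers of both genotypes. At such a ratio even few reads of the related Scd1 assigned to Scd2 would add to its counts, so the Scd2 values are uncertain, and its exons also hold Mir5114.

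Acaca and Acacb encode the acetyl-CoA carboxylases that commit carbon to fatty acids and, for Acacb, that restrain fatty acid entry into mitochondria. Fasn encodes fatty acid synthase. All 3 were listed for TSP1ΔPf4 mice only. Acaca had 17.3, 13.0, 15.5 and 16.8 CPM on LF and 25.3, 47.3, 41.4 and 16.6 CPM on AMLN, a log2 fold change of 1.06 (SE 0.31, edgeR adjusted p = 0.104). Leaving out AMLN replicate 4 gave 1.28 with an edgeR adjusted p = 0.0444, the lowest of the 8 fits that left out a mouse, which went up to 0.305. Acacb had 24.4, 20.9, 14.8 and 25.0 CPM on LF and 53.9, 31.3, 41.8 and 11.6 CPM on AMLN, and its difference of 0.70 (SE 0.38, edgeR adjusted p = 0.412) came with the same mouse below all LF mice. Fasn had 43.1, 31.1, 15.8 and 27.6 CPM on LF and 45.8, 75.5, 84.7 and 20.2 CPM on AMLN, a log2 fold change of 0.94 (SE 0.41, edgeR adjusted p = 0.244).

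Elovl3 and Elovl6 lengthen fatty acids and Fads2 desaturates polyunsaturated ones. Elovl3 went against the other fatty acid genes. In TSP1F/F mice it had 279, 115, 160.1 and 306 CPM on LF and 92.4, 95.9, 37.9 and 30.7 CPM on AMLN, a log2 fold change of -1.74 (SE 0.45, edgeR adjusted p = 0.160), and the groups were separate. Its exons overlap the antisense gene Pitx3. Elovl6, listed in the same mice, had 32.6, 31.9, 31.5 and 27.4 CPM on LF and 42.9, 58.4, 50.3 and 31.8 CPM on AMLN, a log2 fold change of 0.57 (SE 0.25, edgeR adjusted p = 0.466), with 1 AMLN mouse inside the LF range. Its exons overlap the antisense gene Gm35986. Fads2 in TSP1ΔPf4 mice had 327, 355, 134 and 341 CPM on LF and 534, 511, 473 and 318 CPM on AMLN, a log2 fold change of 0.67 (SE 0.31, edgeR adjusted p = 0.265), and LF replicate 3 stood far below the other LF mice. Per length, Fads2 had 305 ± 64.4 and Fasn 5.17 ± 2.68 FPKM in the AMLN-fed TSP1ΔPf4 mice (SD, n = 4). The deposited length of Fads2 is 1508 bases, against 3295 exon bases in GENCODE M21, and FPKM with the latter would be lower.

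**Figure D2:**
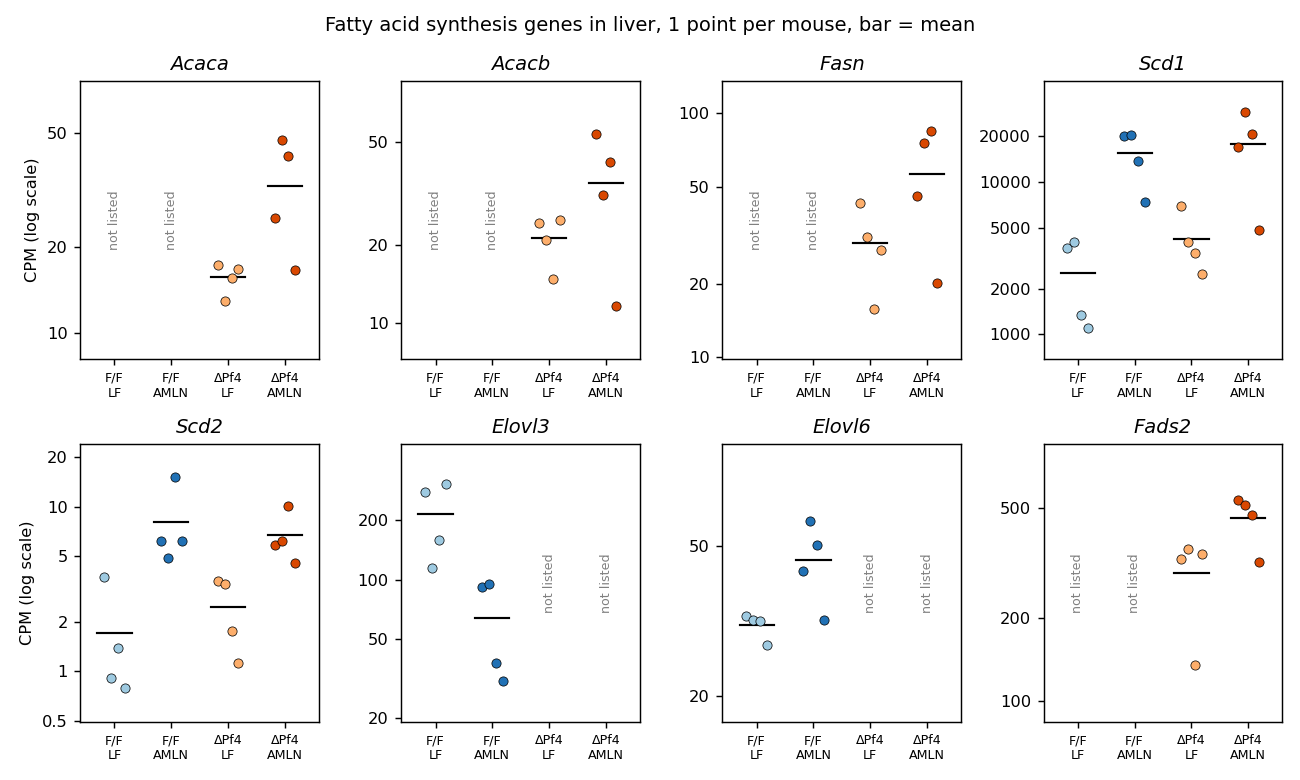
Levels in CPM on a log axis of the 8 listed fatty acid synthesis genes, with 1 point per mouse, 4 mice per group and a bar at the group mean. AMLN means lie above LF means except for Elovl3, and the rightmost point of the AMLN-fed TSP1ΔPf4 group, replicate 4, is the lowest of its group in each panel that shows it.

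**Figure D3:**
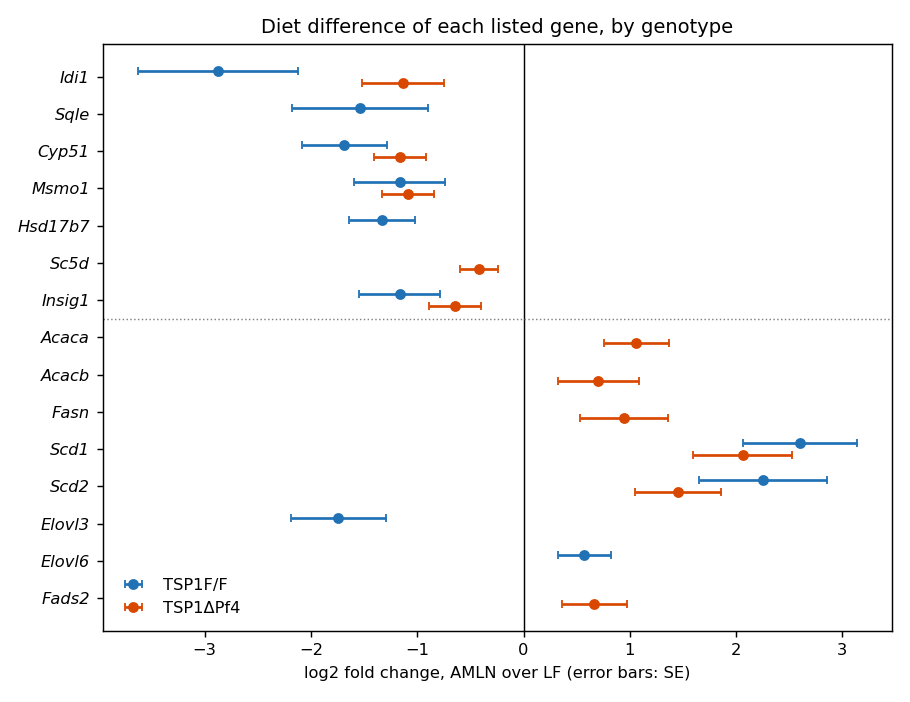
Log2 fold change of AMLN over LF with its standard error for each listed gene, sterol genes and Insig1 above the dotted line and fatty acid genes below it, in blue for TSP1F/F and orange for TSP1ΔPf4 mice. Sterol genes and Insig1 lie left of 0 (-2.87 to -0.42), and of the fatty acid genes Elovl3 alone does (-1.74).

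The levels of both routes were also set side by side within each mouse. For each mouse, the median over the listed genes of log2(CPM + 0.5) was taken relative to the LF mean of its genotype. In AMLN-fed TSP1ΔPf4 mice the sterol median was -1.09, -0.995, -0.68 and -0.93, and the fatty acid median was 1.10, 1.36, 1.49 and 0.16. Replicate 4 was thus near LF for fatty acid genes, being the lowest of its group in 6 of 6, and was no exception for sterol genes, being lowest in 0 of 4. Its Fabp4 and Cidea levels summed to 11.5 CPM, beside 26.6 to 61.1 CPM in the rest of its group. Its listed stellate cell markers summed to 16.2 CPM beside 40.5 to 70.7 CPM, and its listed macrophage markers to 226 CPM beside 151 to 157 CPM. The part of these genes in its fatty acid values was not tested. On LF the TSP1ΔPf4 mice had sterol medians of 0.19, 0.14, -0.31 and -0.06 and fatty acid medians of 0.41, 0.10, -0.38 and 0.05, in the same order for both routes. In the TSP1F/F mice on AMLN the sterol median was -1.46, -1.40, -1.40 and -1.01 and the fatty acid median 1.13, 1.19, 1.68 and 0.91. LF-fed TSP1F/F mice had sterol medians of 0.81, -0.39, 0.26 and -0.99 and fatty acid medians of 0.62, -0.21, -0.18 and -0.38, and LF replicate 4 was the lowest for both and at the edge of the AMLN range for sterol genes.

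**Figure D4:**
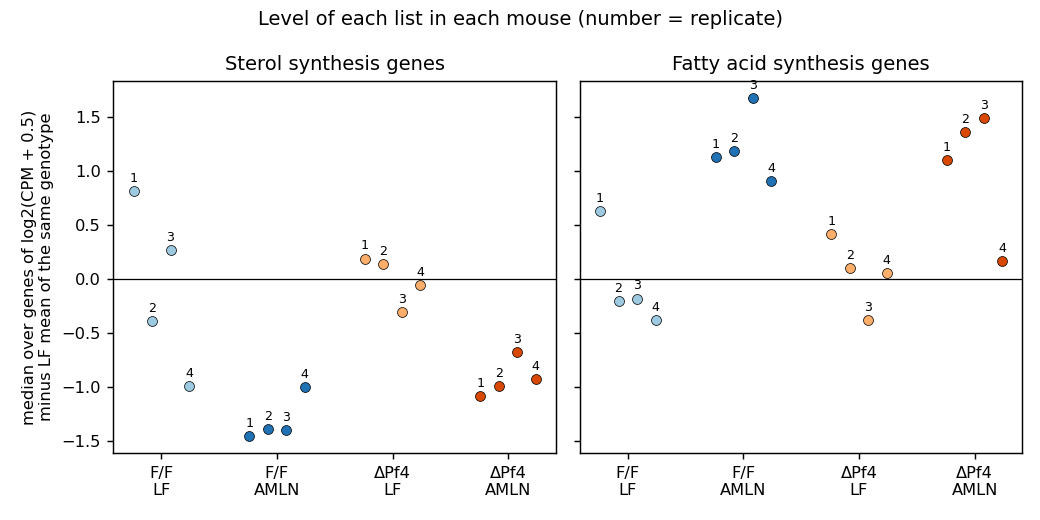
Median over the listed sterol synthesis genes (left) and fatty acid synthesis genes (right) of log2(CPM + 0.5), relative to the LF mean of the same genotype, with 1 numbered point per mouse. AMLN-fed TSP1ΔPf4 replicate 4 lies with its group on the left (-0.93) and close to LF on the right (0.16).

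The genotypes could be compared for the 6 genes listed in both tables. On AMLN, 0.546% of 733 shared genes were called higher and 8.46% lower in TSP1ΔPf4 than in TSP1F/F mice, and the median of all shared genes was -0.38 (TMM -0.10, DESeq2 -0.03). The log2 differences of the members were -0.07 (SE 0.66) for Idi1, 0.02 (SE 0.30) for Cyp51, -0.40 (SE 0.30) for Msmo1, 0.28 (SE 0.32) for Insig1, 0.20 (SE 0.51) for Scd1 and -0.27 (SE 0.42) for Scd2. Every pair of groups overlapped, and edgeR adjusted p ran from 0.446 to 0.975. With TMM and DESeq2 scaling the signs of Idi1 (0.24 and 0.34) and Scd2 (0.01 and 0.12) turned, so no direction is given for them.

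On LF, 0% of 640 shared genes were called in either direction by edgeR, with 25 higher and 19 lower at an unadjusted p under 0.05, and DESeq2 called 1. The sterol genes had lower means in TSP1ΔPf4 mice: the log2 difference was -1.81 (SE 0.53, edgeR adjusted p = 0.554) for Idi1, -0.50 (SE 0.39) for Cyp51 and -0.48 (SE 0.41) for Msmo1. Scd1 and Scd2 had higher means, by 0.74 (SE 0.46) and 0.53 (SE 0.62). All these groups overlapped.

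The diet response itself was compared by an interaction term, which called 0% of 734 shared genes higher and 0.409% lower. Shared genes, here and above, had passed the diet test in both genotypes. Genes listed for a single genotype could not enter, so these shares do not describe all genes. The interaction values share the mice of the comparisons above. A positive value means a higher AMLN over LF ratio in TSP1ΔPf4 mice, which for sterol genes is a mean less far below LF. It was 1.74 (SE 0.88, edgeR adjusted p = 0.360) for Idi1, 0.52 (SE 0.49) for Cyp51, 0.08 (SE 0.52) for Msmo1 and 0.52 (SE 0.48) for Insig1. It was -0.54 (SE 0.73) for Scd1 and -0.80 (SE 0.75) for Scd2, so neither route was shown to respond differently by genotype, and none was shown to respond alike. The median of all shared genes was -0.34 (TMM 0.05, DESeq2 0.01).

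Related genes were read from lists of sterol handling, lipid regulators, and fatty acid use. In TSP1ΔPf4 mice, 9 of the 21 genes for other steps of sterol synthesis and handling were tested, and 1 was called, higher. This was Abcg5, part of the transporter that exports sterols into bile, with 72.0, 60.0, 60.1 and 57.6 CPM on LF and 108, 163, 126 and 129 CPM on AMLN. It rose by a log2 fold change of 1.08 (SE 0.20, edgeR adjusted p = 0.0467). Of 16 sterol uptake and transport genes 3 were tested, 2 above and 1 below LF with a median of 0.33, and 1 was called. This was Stard4, a sterol carrier protein, with 46.1, 45.8, 47.3 and 37.5 CPM on LF and 13.1, 23.4, 20.6 and 23.0 CPM on AMLN, and it fell by 1.14 on the log2 scale (SE 0.22, edgeR adjusted p = 0.0476). Each call was lost in 6 of 8 fits that left out a mouse, with an edgeR adjusted p up to 0.162 for Abcg5 and 0.151 for Stard4, and also with the replicate block (edgeR adjusted p = 0.144 and 0.136). With TMM scaling the call of Stard4 was lost as well (-0.82, edgeR adjusted p = 0.0779).

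In TSP1F/F mice none of the tested genes of these lists was called. Stard4 had 41.0, 31.6, 47.5 and 18.5 CPM on LF and 8.83, 10.9, 16.1 and 8.60 CPM on AMLN, a log2 fold change of -1.64 (SE 0.35, edgeR adjusted p = 0.0829) with separate groups. Of the uptake and transport genes 4 were tested here, 2 above and 2 below LF, with a median of 0.26. Mylip stood at 1.11 (SE 0.32) and Mttp at -0.60 (SE 0.21), both with separate groups. Without overlap 1 of the 4 was higher and 2 were lower, beside 36.6% and 15.6% of all genes. Vldlr, named after its values were seen, had overlapping groups in both genotypes. It stood at 1.44 (SE 0.46) in TSP1F/F and 1.01 (SE 0.44) in TSP1ΔPf4 mice. Abcg5 had a log2 fold change of 0.81 (SE 0.29), Abcg1, a cholesterol exporter, 1.85 (SE 0.38), and Soat1, which esterifies cholesterol, 2.23 (SE 0.41). These 3 were the listed genes of sterol handling that were higher without overlap, 3 of 7 tested beside the 36.6% of all genes. In TSP1ΔPf4 mice Abcg1 had 1.47 (SE 0.30) and Soat1 1.11 (SE 0.33). Tm7sf2, a sterol reductase named after its values were seen, had log2 fold changes of -1.11 (SE 0.32) in TSP1F/F and -0.83 (SE 0.22) in TSP1ΔPf4 mice.

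Of 21 other lipogenic regulators, 5 were tested in TSP1ΔPf4 mice and none in TSP1F/F mice. Pparg, a regulator of fat storage, had a log2 fold change of 1.00 (SE 0.27), Usf1, which binds E boxes, -0.74 (SE 0.25), and Nfyb, a subunit of NF-Y, -0.44 (SE 0.20). None of them was called. The 3 were named for groups that did not overlap, 1 higher and 2 lower of 5 tested. Of all genes tested in these mice, 20.4% were higher and 29.1% lower without overlap. Of 32 other fatty acid and glyceride synthesis genes, 10 and 11 were tested with medians of 0.21 and 0.58, and none was called. Fatty acid oxidation genes were tested for 17 of 25 in TSP1F/F mice, all below LF with a median of -0.81, and for 4 in TSP1ΔPf4 mice, 3 of them below LF. None was called for diet. Between the AMLN-fed genotypes only 3 of the 25 oxidation genes, those listed for both, could be tested. Of these, 2 were called higher in TSP1ΔPf4 mice, beside 0.546% of all 733 shared genes. Acot3, an acyl-CoA thioesterase, stood at 1.68 (SE 0.43, edgeR adjusted p = 0.0298). Cyp4a14, a fatty acid hydroxylase, stood at 1.47 (SE 0.41, edgeR adjusted p = 0.0420). Of 8 fits that left out a mouse, 4 lost the call of Acot3 and 7 that of Cyp4a14, with edgeR adjusted p up to 0.0948 and 0.104. On LF the genotype difference was 1.36 (SE 0.47) for Acot3 and 0.44 (SE 0.28) for Cyp4a14, and neither was called. Their interactions were 0.32 (SE 0.67) and 1.03 (SE 0.51), also not called. A dependence of these genotype differences on the diet was therefore not shown.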

How the data were processed

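Liver RNA-seq of 16 mice was deposited as 2 tables, 1 per genotype. Reads were aligned to mm10, with STAR according to the paper and HISAT2 according to the submitters' processing notes; the counting tool, annotation release and strand setting are not given in the sources used here. The authors deposited counts per gene, FPKM from those counts and the gene length, a signal that is the count divided by a size factor, and p-values and fold changes of their DESeq2 test. The authors' p-values were read only to learn that the tables hold genes below 0.05 and that 16784 (TSP1F/F) and 13927 (TSP1ΔPf4) genes had been adjusted over. Their fold changes were not used. All columns of single mice were matched to a sample. Of the 15 listed members, 11 have the deposited start and end in GENCODE M21.

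Library totals were computed as the count over FPKM and length. Since they are not whole numbers, the totals may already be scaled. Counts were tested with edgeR 4.0.16 (R 4.3.3, limma 3.58.1) after filterByExpr. Diet comparisons were adjusted over the authors' numbers of genes, and genotype and interaction comparisons over the shared genes tested (752 in both tables). The dispersion was estimated from selected genes. Single genes were also tested by exact permutation of log2(CPM + 0.5) with scipy 1.17.1. The labels do not say that replicates came from separate cages or litters, so p-values measure the spread between these mice. The members and lists were chosen with earlier results of these data known. Named were all listed members, called genes of the other lists and, per list and comparison, up to 3 with the largest fold among those without overlap; others are marked. Alternatives were DESeq2 1.42.0, TMM, no filter, a replicate block, other adjustments, all 16 mice, no fold threshold, each mouse left out, and, chosen after seeing the data, the authors' size factors in edgeR and DESeq2. The scripts were tested on simulated data.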

Additional observations from a re-analysis of the deposited data

Results flagged for a closer look

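Among 42 groups of 4 mice examined over the listed members, 3 held a mouse that stood far from the other mice of its group, where chance gives about 1 in 20 (2.1). Sqle had 12.8 CPM in LF-fed TSP1F/F replicate 1, beside 2.48 to 2.89 CPM in the other mice. Scd2 had 15.0 CPM in AMLN-fed TSP1F/F replicate 3, beside 4.85 to 6.17 CPM. Fads2 had 134 CPM in LF-fed TSP1ΔPf4 replicate 3, beside 327 to 355 CPM.

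Oxsm, the mitochondrial ketoacyl synthase and not a member, went opposite ways with diet in the genotypes. It had 39.0, 42.2, 57.8 and 34.5 CPM on LF and 29.7, 30.6, 29.3 and 25.6 CPM on AMLN in TSP1F/F mice, and 31.1, 32.2, 28.8 and 23.4 CPM on LF and 40.5, 37.5, 37.3 and 38.2 CPM on AMLN in TSP1ΔPf4 mice, without overlap in either. The interaction was 1.00 on the log2 scale (SE 0.30) and did not pass edgeR's test (adjusted p = 0.0743).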

How the results depend on the processing

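Over the alternatives run, every diet difference of a listed member kept its sign (160 values in TSP1F/F and 176 in TSP1ΔPf4 mice). Alternatives that changed only the adjustment or the fold threshold reuse the main fold changes, so their signs could not turn. The genes had also been listed for a diet difference on the same mice, so a kept sign is no independent evidence. Calls of members depended on the tool and the adjustment. In TSP1F/F mice DESeq2 called 4 sterol and 3 fatty acid genes (3 and 3 with the authors' size factors), and adjusting over the listed genes called 4 and 3. In TSP1ΔPf4 mice DESeq2 called 1 and 3 (2 and 3 with the authors' size factors), and adjusting over the listed genes 3 and 3. With a mouse left out, sterol genes called in TSP1ΔPf4 mice ranged from 0 to 1 and fatty acid genes from 0 to 2.

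The number of all genes called in TSP1F/F mice, 52, became 741 with DESeq2, 563 with DESeq2 and the authors' size factors, 83 without the filter, 1124 adjusted over listed genes and 2 to 61 with a mouse left out. In TSP1ΔPf4 mice 92 became 1376, 1073, 198 with TMM, 2187 adjusted over listed genes and 1 to 182 with a mouse left out. On AMLN 66 became 22 to 84 with a mouse left out, and the interaction's 3 became 44 with DESeq2, 15 with TMM and 0 to 24 with a mouse left out. On LF DESeq2 called 1.

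With the replicate block the calls were 10 (TSP1F/F), 4 (TSP1ΔPf4), 116 (AMLN genotypes) and 0 (interaction), and no member was called. Correlations of same-numbered mice ran from -0.472 to 0.289 within the genotypes. Between the genotypes they were 0.282, 0.093, 0.312 and 0.397 on AMLN and -0.052 to 0.481 on LF. Since not every pair of any comparison was over 0.1, the numbers were not taken as pairs.

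The sterol median in TSP1ΔPf4 mice, -1.11, was -0.80 with DESeq2 and -0.82 with TMM. That of the genotypes on AMLN, -0.07, was 0.34 and 0.24. There Idi1 turned to 0.34 with DESeq2, 0.24 with TMM and 0.18 with the replicate block, and Scd2 to 0.12 with DESeq2 and 0.013 with TMM. With a mouse left out Idi1 ranged from -0.44 to 0.25, Cyp51 from -0.082 to 0.14, Scd1 from -0.13 to 0.52 and Scd2 from -0.54 to 0.22, and the interaction of Msmo1 from -0.32 to 0.34. The cause of these changes was not tested. Depth limits Idi1, Sqle and Scd2 most, whose counts fell under 60 in some livers. Intervals from these counts would cover counting error only.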
